A study of Mus musculus with 12 samples.

Results

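To describe the genes that control lipid peroxidation during acute iron overload, 10 genes were read from the RNAseq counts of 12 mouse livers. They were chosen by name, as the rows of the counts table whose Ensembl identifier maps to Gpx4, Aifm2, Dhodh, Gch1, Vkorc1l1, Acsl3, Acsl4, Lpcat3, Alox12 and Ptgs2, out of 55414 genes in the table. All 10 were found. The livers came from female C57Bl/6J mice, for which the labels name no transgene or deletion, in 4 groups of 3 mice. FeSO4 at 300 mg/kg, or 0.9% NaCl in its place, was injected i.p., followed 6h later by PBS or by dexamethasone at 10 mg/kg (DEX, a synthetic glucocorticoid that activates the glucocorticoid receptor, GR), and the liver was taken another 2h later. The groups are called NaCl/PBS, NaCl/DEX, FeSO4/PBS and FeSO4/DEX, and NaCl/PBS served as the control. The liver was sequenced whole, so a lower value can mean fewer cells of a type or less RNA per cell, which cannot be told apart here.

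Ferroptosis is a form of cell death in which iron drives the peroxidation of polyunsaturated fatty acids in membrane phospholipids. Cells oppose it with enzymes that reduce lipid hydroperoxides or that regenerate lipid-soluble radical scavengers, and they set their sensitivity through the enzymes that decide which fatty acids enter the membrane. GPX4 reduces phospholipid hydroperoxides with glutathione. AIFM2 (also called FSP1), DHODH and VKORC1L1 reduce ubiquinone or vitamin K to their scavenging forms, and GCH1 makes the precursor of tetrahydrobiopterin. ACSL4 and LPCAT3 place polyunsaturated fatty acids into phospholipids, whereas ACSL3 activates monounsaturated ones. ALOX12 and PTGS2 (COX-2) are oxygenases of arachidonic acid and related lipids.

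The libraries held between 16335651 and 23827340 counts on genes, and between 17493 and 18579 genes were detected in each. The chi-square per gene between livers of the same group was 18.3 to 90.1, so no pair of libraries was alike within counting error. FeSO4/PBS mouse 1 stood apart, with an SD of 0.411 on the log2 scale for its deviations from the group mean over all tested genes, against 0.237 to 0.325 in the other livers. The values of this mouse are therefore named below, and results are given without it where it changes them. The tissue label was checked against 10 hepatocyte markers, which were all detected and summed to 106715 CPM (counts scaled to library size) or more in every liver.

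The members called in at least 2 of the 4 comparisons between groups were Aifm2, Acsl3 and Lpcat3. The 250 bases before the RefSeq start site of each are shown because these genes carry the responses described below. They are written 5′ to 3′ on the strand of the gene, with capitals for the GC box (GGGCGG), the CCAAT box (CCAAT), the nuclear receptor hexamer (AGGTCA) and the GR hexamer (AGAACA), each searched on both strands. Coordinates are those of GRCm38.p6, the build of the RefSeq promoters, not of the counts.
Aifm2, chr10:61720399-61720648, plus strand: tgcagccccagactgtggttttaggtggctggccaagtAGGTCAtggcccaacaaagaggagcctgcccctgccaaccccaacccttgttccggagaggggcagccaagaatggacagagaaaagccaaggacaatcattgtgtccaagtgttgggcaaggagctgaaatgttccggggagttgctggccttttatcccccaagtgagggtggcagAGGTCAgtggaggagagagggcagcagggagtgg
Acsl3, chr1:78657575-78657824, plus strand: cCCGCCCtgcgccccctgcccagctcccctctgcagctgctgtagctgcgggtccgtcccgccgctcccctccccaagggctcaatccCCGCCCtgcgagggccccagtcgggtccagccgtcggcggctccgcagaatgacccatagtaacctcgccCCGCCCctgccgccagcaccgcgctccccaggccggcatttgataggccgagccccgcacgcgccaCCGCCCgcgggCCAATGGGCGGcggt
Lpcat3, chr6:124662854-124663103, plus strand: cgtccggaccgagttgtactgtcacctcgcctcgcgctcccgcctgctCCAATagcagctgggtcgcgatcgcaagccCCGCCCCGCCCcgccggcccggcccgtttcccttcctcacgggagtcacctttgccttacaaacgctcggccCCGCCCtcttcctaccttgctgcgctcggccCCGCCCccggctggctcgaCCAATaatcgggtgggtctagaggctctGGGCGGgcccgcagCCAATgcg
The Aifm2 stretch held the nuclear receptor hexamer at -212 and -34 from the start and neither of the boxes. The Acsl3 stretch held 5 GC boxes and 1 CCAAT box, and that of Lpcat3 held 5 GC boxes, of which those at -172 and -167 share a base, and 3 CCAAT boxes. GC content was 57.6% for Aifm2, 75.6% for Acsl3 and 70.0% for Lpcat3.

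RefSeq gave 12 promoter windows for 9 members, each with 250 bases before and 50 bases after a start, and a gene can have more than 1 window. A GC box was found in 10 of the 12 windows (8 of 9 members) and in 35.7% of all 32851 windows, and Aifm2 was the member without one. CCAAT was found in 7 of the 12 windows (5 of 9 members) and in 37.4% of all windows. Windows of Gpx4 overlap, so some of its matches are counted more than once. GC content was 55.3% to 81.7% in the members' windows, beside a median of 52.7% for all windows. The nuclear receptor hexamer was found in Aifm2 and Gpx4 (16.3% of all windows), and the GR hexamer in Alox12 alone (19.0% of all windows). None of the 12 windows held the antioxidant response element core TGACNNNGC (12.4% of all windows), the AP-1 element TGACTCA (5.2%), the cAMP response element TGACGTCA (1.79%) or the palindromic glucocorticoid response element (0.475%). A match is a description of letters, and the absence of a match says nothing about elements outside these windows. No window was given for Dhodh.

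Levels were first compared between genes per length, as CPM per kb of the union of exons. In NaCl/PBS livers Gpx4 was highest with 50.1 ± 5.37 (SD, n = 3), followed by Gch1 with 25.5 ± 3.48. Acsl4 (12.3 ± 1.16), Lpcat3 (10.6 ± 0.94) and Acsl3 (8.30 ± 1.01) formed the middle. Vkorc1l1 (4.58 ± 0.51), Aifm2 (2.81 ± 0.10) and Dhodh (1.14 ± 0.17) were lower, and Alox12 had 0.141 ± 0.076. Ptgs2 was near absence with 0.0056 ± 0.0096. The mice of neighbouring genes in this order did not overlap, except those of Acsl4 and Lpcat3, whose levels did not differ beyond their spread.

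The order changed with treatment. In NaCl/DEX livers Aifm2 had 4.94 ± 0.17 CPM per kb and overlapped with Vkorc1l1 (4.85 ± 0.16), while Acsl3 (3.99 ± 0.42) lay below both. By the longest transcript in place of the exon union, the order of the latter pair turned, with 5.39 for Acsl3 and 4.99 for Vkorc1l1. In FeSO4/PBS and FeSO4/DEX livers Lpcat3 (17.4 ± 5.41 and 18.9 ± 0.23) stood with Acsl4 (16.1 ± 5.74 and 16.5 ± 2.57), and their mice overlapped. Acsl3 overlapped with Vkorc1l1 in both FeSO4 groups. Gpx4 and Gch1 stayed the highest 2 in each of the 4 groups, and Alox12 and Ptgs2 the lowest.

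**Figure D1:**
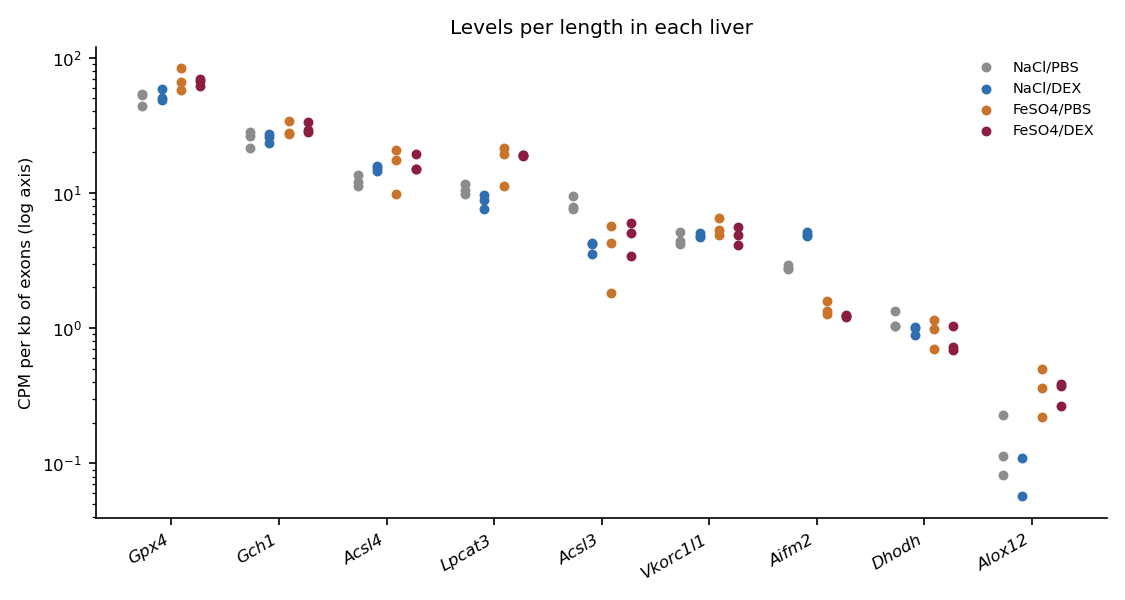
CPM per kb of exons on a log axis for 9 genes (x axis), with 1 point per liver and colours for the 4 groups; livers with no read are not drawn, and Ptgs2 is left out. Gpx4 and Gch1 lie at the top in all groups, Aifm2 lies highest after DEX alone, and Alox12 lies lowest.

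Of the 10 genes, 9 passed the filter on low counts and were tested among 13857 genes with edgeR. Ptgs2 did not pass. A gene was called at an edgeR FDR (Benjamini-Hochberg adjusted p over all tested genes) of 0.05 or less, with no minimum LFC (log2 fold change). After FeSO4 alone (FeSO4/PBS against NaCl/PBS), Gpx4 and Lpcat3 were upregulated and Aifm2 and Acsl3 were downregulated, so that 2 members rose and 2 fell of 9 tested. In the background, 27.2% of all tested genes were called higher and 27.3% lower, or 54.5% in either direction, and the share of members does not exceed these. The median LFC of the 9 members was 0.29, beside -0.015 for all tested genes. DEX alone raised Aifm2 and lowered Acsl3. Comparisons that use the same group share its mice, so their values for a gene are not independent.

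**Figure D2:**
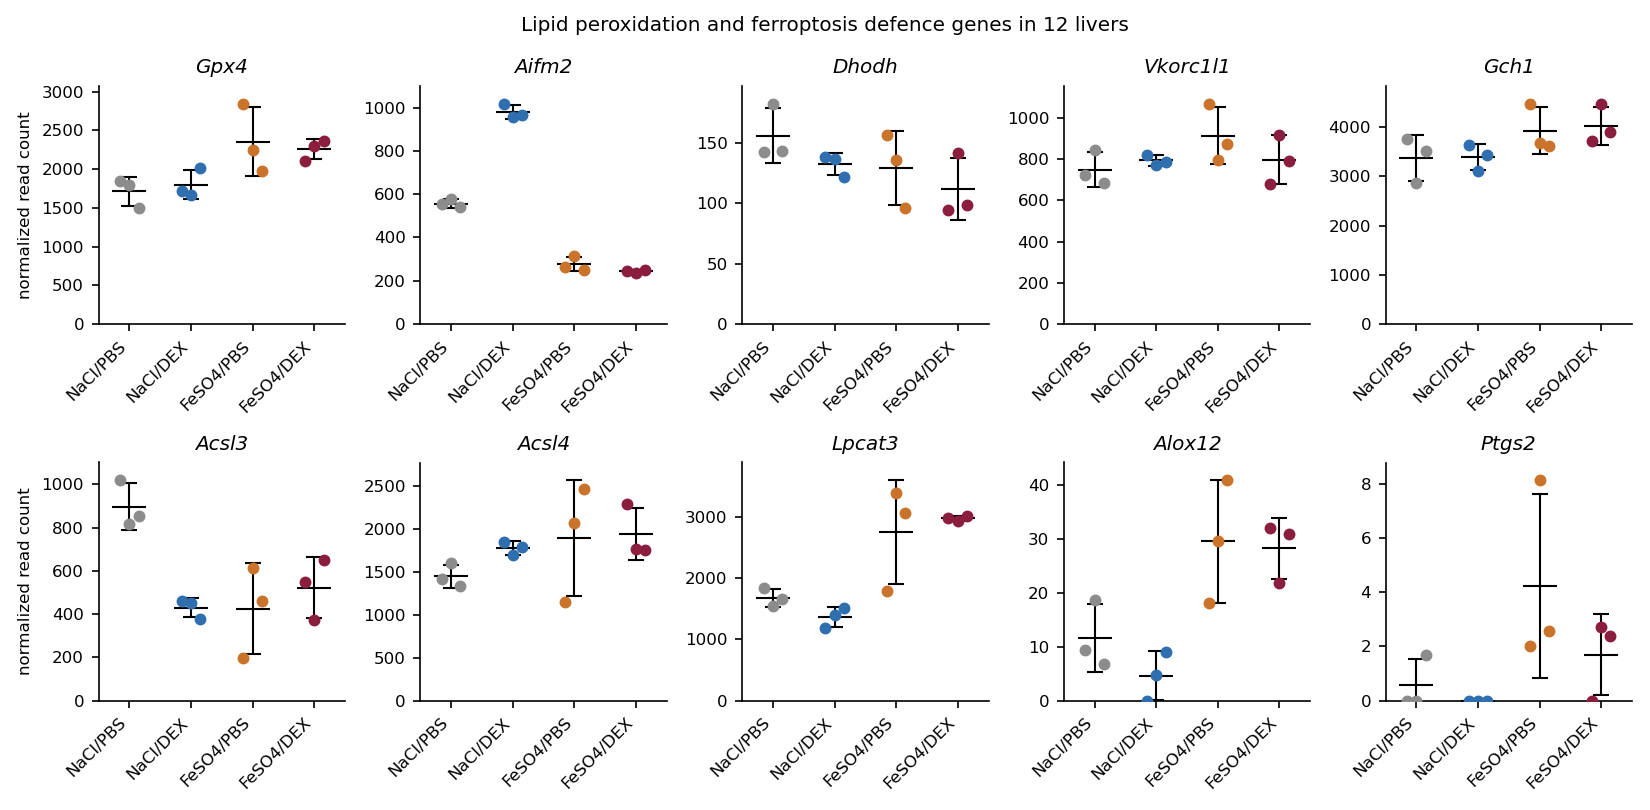
Normalized read counts (y axes, each from 0) of the 10 genes in the 4 groups, with 1 point per liver, a bar at the group mean and whiskers of 1 SD (n = 3). Aifm2 separates the groups most clearly, with 238 to 316 in all FeSO4 livers, 539 to 579 in NaCl/PBS and 955 to 1019 in NaCl/DEX.

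Gpx4 (ENSMUSG00000075706) lies on chromosome 10 from 79883000 to 79892273 on GRCm39. Normalized counts (scaled to a common library size) were 1841, 1794 and 1502 in NaCl/PBS livers. FeSO4/PBS livers had 2844, 2250.2 and 1969, each above the highest control liver, and 8317 of the 13857 tested genes had groups apart in this comparison. The LFC was 0.46 (SE 0.14, edgeR FDR 0.012), which is a rise of 1.38-fold. The call was lost without NaCl/PBS mouse 3, with an LFC of 0.37 and an edgeR FDR of 0.061, and the LFC was 0.30 without FeSO4/PBS mouse 1. Under scaling by library size without TMM factors, the median LFC of all genes was -0.34, and Gpx4 had 0.14 (edgeR FDR 0.37), or 0.47 above that median. Processed pseudogenes of Gpx4 exist, and reads that map equally well to one of them are not counted.

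DEX did not move Gpx4 detectably in NaCl mice, where the 3 NaCl/DEX mice had 1721, 1662 and 2011 normalized counts. The LFC was 0.07, with a 95% interval of -0.23 to 0.37. The FeSO4/DEX mice had 2108, 2297 and 2367, all above the NaCl/DEX mice, and in this comparison 55.9% of all tested genes had groups apart. The LFC against NaCl/DEX was 0.33 (SE 0.14, edgeR FDR 0.0699). This did not pass the threshold, although it did in a fit of these 6 livers alone (edgeR FDR 0.0369).

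Aifm2 (ENSMUSG00000020085, chromosome 10 from 61540677 to 61577788) gave the clearest response among the members. The NaCl/PBS mice had 553, 579 and 539 normalized counts and the FeSO4/PBS mice 265, 316 and 251. The groups did not overlap, which held for 8317 of the 13857 tested genes. The LFC was -1.003 (SE 0.11, edgeR FDR 3.92e-06), a fall to 0.499 of the control level. The direction was the same with each mouse left out, with LFCs between -1.11 and -0.94. DEX alone raised it to 1019, 955 and 966 normalized counts, all above the NaCl/PBS mice, a separation found in 37.9% of all tested genes. The LFC was 0.81 (SE 0.10, edgeR FDR 0.000117), or 1.76-fold. Some hepatocyte markers moved as well, with 4 of 10 called higher after DEX, beside 6.50% of all tested genes. The 4 were Tat (LFC 2.23), Cyp3a11 (1.05), Apoa1 (0.52) and Hnf4a (0.37). The other 6, among them Alb (LFC 0.24, edgeR FDR 0.29), were not called. All 10 summed to 133239 to 148559 CPM in NaCl/DEX against 106715 to 124374 in NaCl/PBS livers. The part of these markers in the Aifm2 values was not tested.

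In FeSO4 mice, DEX gave no such rise. The FeSO4/DEX mice had 245, 238 and 249.7 normalized counts, each just below the lowest FeSO4/PBS mouse, and 9.3% of all tested genes had groups apart there. The LFC was -0.19 (SE 0.11, edgeR FDR 0.80), and its 95% interval of -0.42 to 0.05 does not reach the 0.81 of NaCl mice. Between the DEX-treated groups, FeSO4 livers had 0.249 of the level in NaCl livers. This LFC of -2.004 (SE 0.11, edgeR FDR 4.18e-08) put Aifm2 at place 12 by p among all tested. Exons of Aifm2 overlap with Macroh2a2 on the opposite strand, which had 165 counts over all livers beside 6358 for Aifm2.

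Dhodh (chromosome 8 from 110317492 to 110335347), which oxidizes dihydroorotate in pyrimidine synthesis and passes the electrons to ubiquinone in mitochondria, had few counts. It had 142, 182 and 143 normalized counts in NaCl/PBS mice, and 156, 135 and 95.6 in FeSO4/PBS mice, so the groups overlapped. The LFC was -0.26 (SE 0.21, edgeR FDR 0.30), with a 95% interval of -0.71 to 0.18. NaCl/DEX mice had 138, 136 and 122, each below the NaCl/PBS mice, at an LFC of -0.24 that did not pass (edgeR FDR 0.51). In this comparison 37.9% of all tested genes had groups apart. FeSO4/DEX mice had 94.7, 141 and 98.7. Scaled by library size alone, Dhodh was called lower after FeSO4, with an LFC of -0.59 and an edgeR FDR of 0.0186.

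Vkorc1l1 (chromosome 5 from 129970802 to 130018491), a paralog of the vitamin K epoxide reductase, had 721, 842 and 681 normalized counts in NaCl/PBS mice and 1068, 798 and 875 in FeSO4/PBS mice. The groups overlapped, and the LFC was 0.29 (SE 0.14, edgeR FDR 0.0875). It was called without NaCl/PBS mouse 2 (edgeR FDR 0.047) or FeSO4/PBS mouse 2 (edgeR FDR 0.042), and scaling by library size alone gave an LFC of -0.03. Values after DEX were 821, 771 and 787 in NaCl mice and 679, 918 and 792 in FeSO4 mice. Exons of Vkorc1l1 overlap with those of Gusb on the opposite strand, which had 6258 counts over all livers beside 9648 for Vkorc1l1.

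Gch1 (chromosome 14 from 47391346 to 47426915), the first enzyme of tetrahydrobiopterin synthesis, had 3752, 2860.4 and 3514 normalized counts in NaCl/PBS mice. The FeSO4/PBS mice had 4478, 3682 and 3619 and overlapped with them. The LFC was 0.22 (SE 0.13, edgeR FDR 0.17), and after DEX alone it was 0.01, with a 95% interval of -0.27 to 0.29. FeSO4/DEX mice, with 3725, 4461 and 3894, lay above NaCl/DEX mice, with 3640.0, 3113 and 3441, as the groups of 55.9% of all tested genes were apart, but the difference did not pass the test (LFC 0.24, edgeR FDR 0.15). Gchfr, which encodes the protein that binds GCH1 and mediates its feedback inhibition, had LFCs of 0.36 after FeSO4 (edgeR FDR 0.078) and 0.07 after DEX (edgeR FDR 0.83). Within each liver, the ratio of Gch1 to Gchfr counts lay between 2.05 and 3.16 and overlapped between all 4 groups.

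Acsl3 (ENSMUSG00000032883, chromosome 1 from 78635537 to 78685461) was lower after either injection. It had 1019.9, 815 and 854 normalized counts in NaCl/PBS mice, 198, 614 and 462 in FeSO4/PBS mice, and 459, 453 and 379 in NaCl/DEX mice. Neither treated group overlapped with NaCl/PBS, and both comparisons share these 3 control mice. After FeSO4, 8317 of the 13857 tested genes had groups apart, and after DEX 37.9% did. The LFC for FeSO4 was -1.08 (SE 0.30, edgeR FDR 0.00698) and that for DEX was -1.06 (SE 0.30, edgeR FDR 0.028). FeSO4/PBS mouse 1 had the lowest value of all 12 livers, and leaving it out moved the FeSO4 LFC to -0.73 (edgeR FDR 0.00718). The call after DEX was lost in 5 of 6 fits that each left out 1 mouse, with edgeR FDRs of up to 0.11 and LFCs between -1.11 and -0.94, and it was kept only without NaCl/PBS mouse 2 (edgeR FDR 0.048).

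With FeSO4 followed by DEX, Acsl3 had 547, 371 and 649 normalized counts, which overlapped with both single treatments. The LFC was 0.30 against FeSO4/PBS (95% interval -0.34 to 0.94) and 0.28 against NaCl/DEX (95% interval -0.36 to 0.92). The difference between the DEX responses of FeSO4 and NaCl mice was 1.36 (SE 0.42) and missed the threshold with an edgeR FDR of 0.0743. It passed with DESeq2 (adjusted p 0.0306) and without the filter on low counts (edgeR FDR 2.23e-08), and without FeSO4/PBS mouse 1 (LFC 0.98, edgeR FDR 0.041) or mouse 2 (LFC 1.74, edgeR FDR 0.019). The LFC was 1.32 to 1.48 over the alternatives that kept all mice, so it changed little where the FDR fell. The fit without a filter held 25013 genes, and why its FDR was so much lower was not tested. Exons of Acsl3 overlap with Utp14b on the same strand, where STAR counts reads for neither gene. Utp14b had 2000 counts over all livers beside 7132 for Acsl3.

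Acsl4 (chromosome X from 141100840 to 141173789) did not pass the test in any comparison. It had 1419, 1601 and 1332 normalized counts in NaCl/PBS mice and 1849.5, 1697 and 1797 in NaCl/DEX mice. The NaCl/DEX mice all lay above, in a comparison where 37.9% of all tested genes had groups apart. The LFC was 0.30 (SE 0.21, edgeR FDR 0.40). In a fit of these 6 livers alone Acsl4 was called (edgeR FDR 0.042). FeSO4/PBS mice had 1150.1, 2076 and 2466, and mouse 1 lay below the controls while the others lay above. The LFC after FeSO4 was 0.39 (SE 0.21, edgeR FDR 0.13) with all mice and 0.65 (edgeR FDR 0.00129) without mouse 1, and it also passed without a filter on low counts (edgeR FDR 0.0222). FeSO4/DEX mice had 2293, 1771 and 1763.

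The balance of the pair was taken as the ratio of Acsl4 to Acsl3 counts within a liver, which does not depend on library scaling. NaCl/PBS livers had 1.39, 1.96 and 1.56. All other livers lay higher, with 4.03, 3.74 and 4.75 in NaCl/DEX, 5.82, 3.38 and 5.34 in FeSO4/PBS and 4.19, 4.77 and 2.72 in FeSO4/DEX. The 3 treated groups overlapped with each other. The ratio of Gpx4 to Aifm2 counts separated the groups in another way, with 2.79 to 3.33 in NaCl/PBS livers, 1.69 to 2.08 in NaCl/DEX livers, and 7.11 to 10.7 over both FeSO4 groups. These ratios were chosen with the values known and are given without a test.

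**Figure D3:**
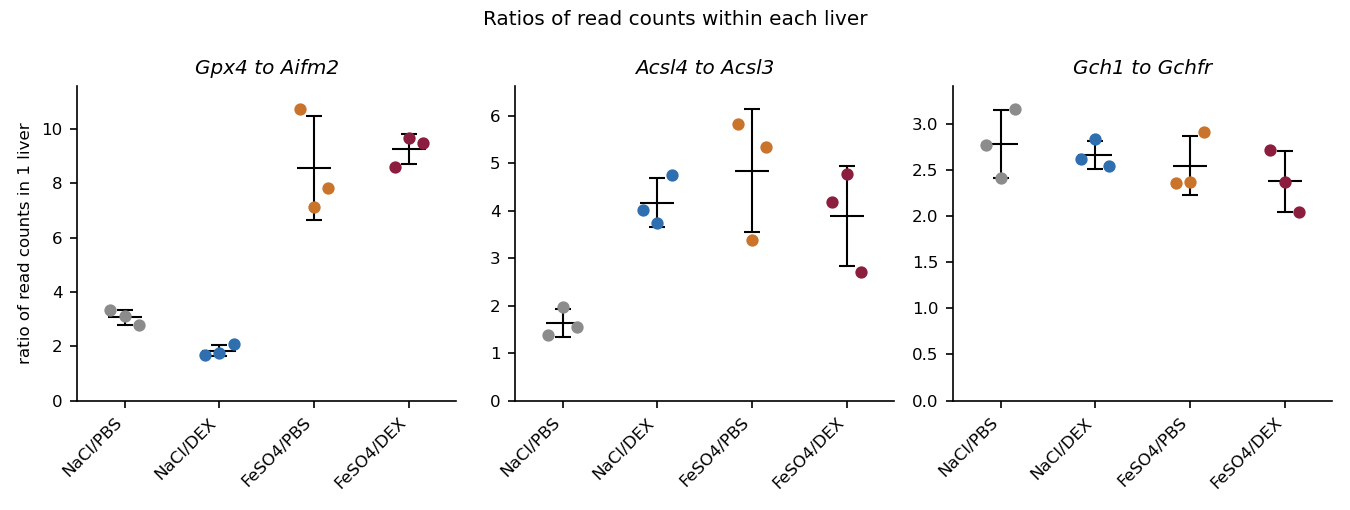
Ratios of read counts within each liver (y axes, from 0) for Gpx4 to Aifm2, Acsl4 to Acsl3 and Gch1 to Gchfr in the 4 groups, with 1 point per liver, a bar at the mean and whiskers of 1 SD (n = 3). Acsl4 to Acsl3 is below 2 only in NaCl/PBS livers, Gpx4 to Aifm2 is above 7 only in FeSO4 livers, and Gch1 to Gchfr overlaps in all groups.

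Lpcat3 (ENSMUSG00000004270, chromosome 6 from 124639765 to 124684440) was higher after FeSO4. It had 1833, 1538 and 1661 normalized counts in NaCl/PBS mice and 1784, 3399.8 and 3065 in FeSO4/PBS mice, where mouse 1 lay within the controls. The LFC was 0.71 (SE 0.18, edgeR FDR 0.0048), or 1.64-fold, and 0.95 (edgeR FDR 1.8e-05) without that mouse. Scaled by library size alone, it was 0.40 and missed the threshold (edgeR FDR 0.091). NaCl/DEX mice had 1189, 1404 and 1508, each below NaCl/PBS, at an LFC of -0.30 that did not pass (edgeR FDR 0.34). Groups were apart in 37.9% of all tested genes there. FeSO4/DEX mice had 2984, 2938 and 3008 and lay above all NaCl/DEX mice (groups apart in 55.9% of all tested genes), and the LFC was 1.12 (SE 0.19, edgeR FDR 0.000265). Exons of Lpcat3 overlap with Emg1 on the opposite strand, which had 6937 counts over all livers beside 25548 for Lpcat3.

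Alox12 (chromosome 11 from 70132283 to 70146221), which oxygenates arachidonic acid and is known from platelets and leukocytes, had few reads. Its raw counts were 13, 20 and 8 in NaCl/PBS mice, 0, 5 and 9 in NaCl/DEX mice, 18, 29 and 32 in FeSO4/PBS mice and 33, 16 and 26 in FeSO4/DEX mice. Against NaCl/PBS, the FeSO4/PBS mice had an LFC of 1.34 (SE 0.56, edgeR FDR 0.057), which did not pass. It passed with DESeq2 (adjusted p 0.023), with no filter (edgeR FDR 0.018), in a fit of these groups alone (edgeR FDR 0.043), and without FeSO4/PBS mouse 1 (edgeR FDR 0.034) or NaCl/PBS mouse 2 (edgeR FDR 0.031). Between the DEX-treated groups no mice overlapped, which held for 55.9% of all tested genes, and the LFC was 2.57 (SE 0.65, edgeR FDR 0.0056). It was 2.03 without the NaCl/DEX mouse at 0 and 3.45 without NaCl/DEX mouse 3. Alox12 passed the filter on low counts through the FeSO4 livers, where it is high, so this call is no support beyond its values, and with at least 10 counts in every library it was not tested.

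Markers of platelets and neutrophils were read in the livers of all 4 groups. The 12 platelet markers summed to 7.62 to 11.1 CPM in NaCl/PBS, 18.2 to 21.8 in NaCl/DEX, 21.1 to 26.0 in FeSO4/PBS and 20.8 to 26.6 in FeSO4/DEX livers, with Gp1bb at 0 in all 12. Of 4 tested, 3 were called higher after FeSO4 and 1, Itgb3, after DEX, beside 27.2% and 6.50% of all tested genes. In NaCl/DEX livers Itgb3 had a mean of 323 normalized counts, against 119 in NaCl/PBS. Itga2b had 40.0 against 40.3 (edgeR FDR 0.998), and Pf4 and Ppbp rose without a call (edgeR FDRs of 0.603 and 0.207). The 10 neutrophil markers summed to 3.55 to 11.1 CPM in NaCl/PBS, 3.25 to 4.46 in NaCl/DEX, 36.6 to 45.2 in FeSO4/PBS and 27.5 to 33.3 in FeSO4/DEX livers. Ltf was at 0 in NaCl/PBS, Ly6g and Camp in NaCl/DEX and Elane in FeSO4/DEX livers. Of 6 tested, 5 were called higher after FeSO4, beside 27.2% of all tested genes. Cxcr2, Retnlg and the platelet marker Ppbp passed the filter on low counts through the FeSO4 livers, where they are high. Any call of these genes is no support beyond their values. Between the DEX-treated groups, 1 of 4 platelet and 5 of 6 neutrophil markers were called higher, beside 22.4% of all tested genes. The platelet sums of the DEX-treated groups overlapped. The part of these markers in the Alox12 values was not tested.

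Ptgs2 (chromosome 1 from 149975194 to 149983978), the inducible cyclooxygenase often read as a marker of ferroptosis, was close to the detection limit. Its raw counts were 0, 0 and 2 in NaCl/PBS mice, 0 in each NaCl/DEX mouse, 2, 8 and 2 in FeSO4/PBS mice and 0, 2 and 2 in FeSO4/DEX mice. With at most 8 reads in libraries of 16335651 counts or more, no fold change is given, and a difference was not detectable at this depth.

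With DEX alone (NaCl/DEX against NaCl/PBS), 1 of 9 tested members was called higher and 1 lower, Aifm2 and Acsl3, where 6.50% of all tested genes were called higher and 7.15% lower, or 13.7% in either direction. The median LFC of members was 0.009, beside -0.025 for all genes. With DEX in FeSO4 mice (FeSO4/DEX against FeSO4/PBS), 0 of 9 members were called, as were 0.00% of all tested genes with edgeR. At an unadjusted p under 0.05 there were 900 genes, DESeq2 called 5 higher and 5 lower, and edgeR without a filter called 99 higher and 71 lower. The 9 members had LFCs between -0.22 and 0.30 in this comparison, with a median of -0.04.

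Between the DEX-treated groups (FeSO4/DEX against NaCl/DEX), 2 of 9 members were called higher, Lpcat3 and Alox12, and 1 lower, Aifm2. The background was 22.4% higher and 20.9% lower, or 43.3% in either direction. For the difference between the DEX responses, which subtracts the LFC in NaCl mice from that in FeSO4 mice, 0 of 9 members were called higher and 1 lower, Aifm2, beside 2.99% and 3.20% of all tested genes, or 6.18% in either direction. The difference for Aifm2 was -1.002 (SE 0.15, edgeR FDR 0.00146), with a 95% interval of -1.33 to -0.68. It kept its call with each of the 12 mice left out, with LFCs between -1.08 and -0.90. For the other 7 members besides Acsl3, differences lay between -0.29 and 1.23 and did not pass.

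**Figure D4:**
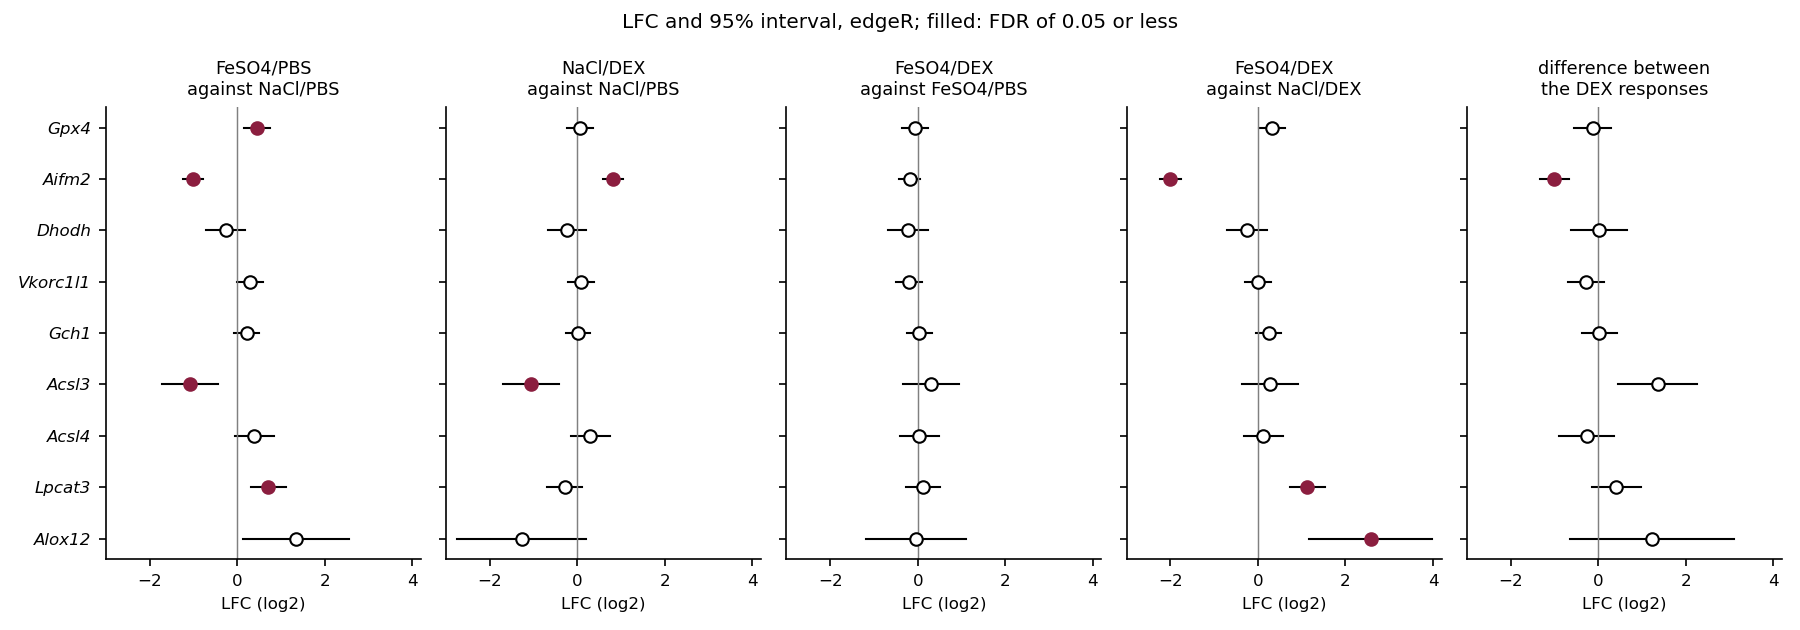
LFC on the log2 scale (x axes) with 95% intervals for the 9 tested genes (rows) in the 4 comparisons and for the difference between the DEX responses; filled points have an edgeR FDR of 0.05 or less. Filled points are Gpx4, Aifm2, Acsl3 and Lpcat3 after FeSO4, Aifm2 and Acsl3 after DEX, none for DEX in FeSO4 mice, Aifm2, Lpcat3 and Alox12 between the DEX-treated groups, and Aifm2 for the difference.

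The other genes of these pathways were read from a list of 128 genes grouped by role, of which 113 were tested. After FeSO4, 38 were higher, 30 lower and 45 not called, with a median LFC of 0.08, beside -0.015 for all genes. Among all tested genes, 27.2% were called higher and 27.3% lower, or 54.5% in either direction. The counts by role and of markers given below for FeSO4 stand beside these shares. Among the glutathione peroxidases, 2 of 5 tested were higher and 0 lower. Gpx3, the plasma form, rose from 50.5 ± 12.2 to 198 ± 29.2 normalized counts (SD, n = 3; LFC 1.98, edgeR FDR 2.4e-06), and Gpx1, the abundant cytosolic form, had an LFC of 0.32 (edgeR FDR 0.0498). Of the 9 genes for selenocysteine incorporation, on which GPX4 depends, 2 were higher and 4 lower. Lrp8, a receptor for selenoprotein P, rose from 3.56 ± 2.11 to 23.7 ± 9.85 normalized counts (SD, n = 3, edgeR FDR 0.0013). It passed the filter on low counts through the FeSO4 livers, where it is high, so this call is no support beyond its values.

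Genes that supply the scavengers were called in both directions. For coenzyme Q synthesis, 7 of 17 were higher and 4 lower, and the largest change was in Idi1, an isomerase of the mevalonate pathway, which fell from 1454 ± 221 to 357 ± 88.3 (SD, n = 3; LFC -2.02, edgeR FDR 1.5e-04). All 4 tested genes of pyrimidine synthesis, the pathway of DHODH, were called, 2 higher and 2 lower, with Uck2, a uridine-cytidine kinase, at an LFC of 1.24 (edgeR FDR 1.7e-05). In the vitamin K cycle, 1 of 3 was higher and 1 lower. Nqo1, a quinone reductase, had an LFC of 1.27 (edgeR FDR 0.0086), whereas Vkorc1, the paralog of Vkorc1l1, had 0.03 (edgeR FDR 0.81).

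Among the acyl-CoA synthetases, 3 of 9 were higher and 2 lower. The paralogs Acsl1 and Acsl5 rose after FeSO4, with LFCs of 0.50 (edgeR FDR 0.042) and 0.79 (edgeR FDR 7.0e-04), where Acsl3 fell, and Acsl1 also rose after DEX, with 0.93 (edgeR FDR 0.0058). Of the 6 tested lysophospholipid acyltransferases, 0 were higher and 2 lower, namely Lpcat1 (LFC -1.24, edgeR FDR 0.00527) and Lpcat2 (LFC -1.37, edgeR FDR 0.0116), beside the higher Lpcat3. Lpcat4 had -0.29 (edgeR FDR 0.59). For fatty acid desaturation and elongation, 2 of 6 were higher and 2 lower, with Elovl5, an elongase of polyunsaturated fatty acids, at 1.34 (edgeR FDR 2.5e-06). In ether lipid synthesis, 1 of 5 was higher and 3 lower, with Peds1, the plasmanylethanolamine desaturase, rising from 213 ± 26.0 to 916 ± 116 normalized counts (SD, n = 3; LFC 2.11, edgeR FDR 6.0e-08).

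Of the 8 phospholipases, 3 were higher and 1 lower after FeSO4. The lower gene was Pla2g4a, which releases arachidonic acid, with 52.0 ± 14.4 normalized counts in NaCl/PBS and 3.12 ± 1.88 in FeSO4/PBS livers (SD, n = 3, edgeR FDR 4.6e-05). Pla2g4a passed the filter on low counts through the NaCl livers, where it is high, so this call is no support beyond its values. Of 7 tested genes for prostanoid synthesis, 2 were higher and 3 lower. The lower ones included Ptgs1, the constitutive paralog of Ptgs2, at an LFC of -1.49 (edgeR FDR 2.9e-05) and Tbxas1, thromboxane synthase, at -1.61 (edgeR FDR 0.00155). Macrophage markers fell in the same livers, with 8 of 10 called lower, and summed to 495 to 568 CPM in NaCl/PBS and 286 to 336 in FeSO4/PBS livers. Their part in these values was not tested. Of the 7 listed genes of the lipoxygenase group besides Alox12, 1 was tested and not called, and Alox5 and Alox15 did not pass the filter.

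Among other genes listed under suppression of ferroptosis, which include Hmox1 and Dhcr7, 11 of 20 were higher and 3 lower. Whether each of them acts as a suppressor was not tested. Slc7a11, the cystine transporter subunit, had 1.00 ± 1.09 normalized counts in NaCl/PBS and 115 ± 97.7 in FeSO4/PBS livers (SD, n = 3, edgeR FDR 2.8e-05). This gene also passed the filter on low counts through the FeSO4 livers, where it is high, so its call is no support beyond its values. Of 6 genes for other oxygenation and electron donors, 2 were higher and 1 lower, with Sat1, a spermine and spermidine acetyltransferase, at an LFC of 1.80 (edgeR FDR 2.9e-06). Hepatocyte markers were also higher, with 5 of 10 called after FeSO4 and sums of 141168 to 157558 CPM in FeSO4/PBS against 106715 to 124374 in NaCl/PBS livers. Their part in the values of Gpx4, Lpcat3 and the genes above was not tested.

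**Figure D5:**
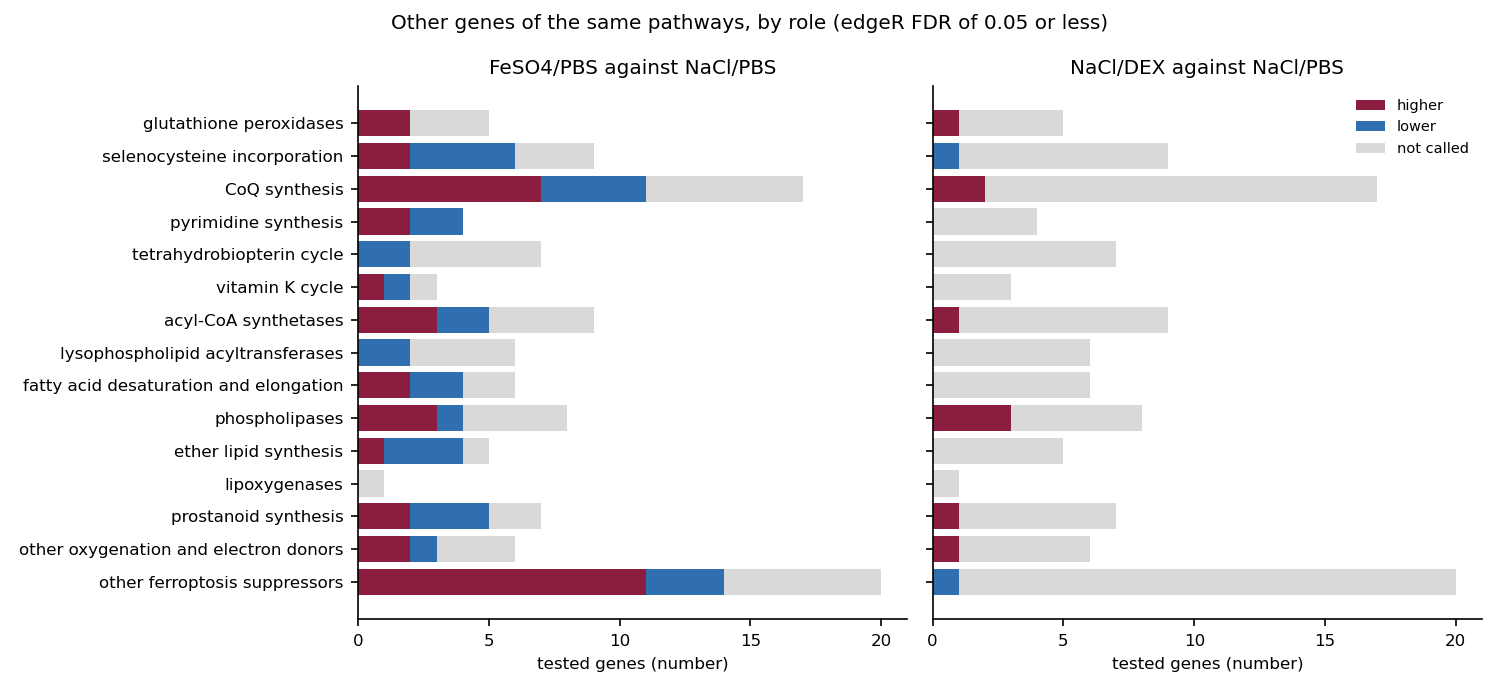
Number of tested genes (x axes) called higher, called lower or not called at an edgeR FDR of 0.05 or less, for each role of the list (rows), after FeSO4 (left) and after DEX (right) in comparison with NaCl/PBS. After FeSO4, 38 genes are higher and 30 lower, and after DEX 9 are higher and 2 lower. Of all tested genes, 27.2% are higher and 27.3% lower after FeSO4, and 6.50% and 7.15% after DEX.

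After DEX alone, 9 of the 113 genes were higher and 2 lower, beside 6.50% and 7.15% of all tested genes. The lower ones were Nfe2l2, which encodes the antioxidant regulator NRF2 (LFC -0.73, edgeR FDR 0.000527), and Lrp8. Lrp8 had 3.56 ± 2.11 normalized counts in NaCl/PBS livers (SD, n = 3) and was listed at 0 in the 3 NaCl/DEX livers. Both groups were near the floor, and the gene was tested only because of its level in FeSO4 livers. In FeSO4 mice, 0 of 113 were called after DEX, as were 0.00% of all tested genes. Between the DEX-treated groups, 28 were higher and 24 lower, beside 22.4% and 20.9% of all tested genes. The difference between the DEX responses was called in 5 of the 113, beside 6.18% of all tested genes. These 5 are named here after their values were seen. Lower were Gpx3 (-0.99, edgeR FDR 0.0486), Pla2g12a, a secreted phospholipase A2 (-1.25, edgeR FDR 0.00175), Pnpla2, the adipose triglyceride lipase (-0.78, edgeR FDR 0.0415), and Por, the electron donor of the cytochromes P450 (-0.77, edgeR FDR 0.0265). Higher was Nfe2l2 (0.70, edgeR FDR 0.0165).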

How the data were processed

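Livers of 12 mice were profiled by stranded, single-end mRNA sequencing. The authors ran FastQC, used STAR 2.7.10b with GENCODE junctions to map reads onto mm39, and deposited whole-number read counts per gene, without normalization, for 55414 genes. They tested them with DESeq2. STAR counts reads that map uniquely and overlap 1 gene, and the strand setting used is not given in the sources used here. Symbols, positions and exon lengths came from GENCODE vM39 on GRCm39, in which 665 genes had no entry, and promoters from RefSeq on GRCm38.p6.

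From these counts, all 12 libraries entered 1 edgeR quasi-likelihood model (R 4.3.3, edgeR 4.0.16) in which each group had its own mean; edgeR's low-count filter kept 13857 genes, with TMM factors of 0.87 to 1.16 and a biological coefficient of variation of 0.169. P-values were adjusted by Benjamini-Hochberg over all tested genes. Normalized counts were obtained by scaling each library, TMM factor included, to the average library. Each library is 1 mouse, and the p-values measure the spread between these mice. The scripts were tested on simulated data. The alternatives were DESeq2 1.42.0 and its size factors, library size alone, no filter or at least 10 counts in every library, a replicate block, only the compared libraries, an LFC beyond 1, and each mouse left out.

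The members, the pathway list, the marker lists (hepatocytes, macrophages, neutrophils, platelets, endothelial cells, lymphocytes, pancreatic acinar cells) and the motifs were chosen with earlier results of these data known, and the GC box, the CCAAT box and both hexamers were added after the other motifs. From each role of the list, the called gene with the largest LFC after FeSO4 was named, with the paralogs of members and Gchfr; 1 gene under this rule is not reported here. Endothelial markers had 3 of 10 called higher and 4 lower after FeSO4, lymphocyte markers 0 of 7 and 1, and of the pancreatic markers 1 was tested and not called. Other experiments of the study were not analysed here.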

Additional observations from a re-analysis of the deposited data

Results flagged for a closer look

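The response of Aifm2 to DEX differed between NaCl and FeSO4 mice. In NaCl mice its LFC was 0.81 and in FeSO4 mice -0.19, and the difference of -1.002 (SE 0.15) had an edgeR FDR of 0.00146 in the test of the difference itself. All 3 NaCl/DEX mice lay above all 3 NaCl/PBS mice, where 37.9% of all tested genes had groups apart. All 3 FeSO4/DEX mice lay below all 3 FeSO4/PBS mice, where 9.3% had groups apart. The LFC in FeSO4 mice did not pass (edgeR FDR 0.80). Among all tested genes, 6.18% were called for a difference between the DEX responses.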

How the results depend on the processing

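Of the LFCs of single members under the alternatives other than an LFC beyond 1, 601 kept their direction where called and their side of the threshold, 16 gained and 8 lost a call, and 0 reversed. Aifm2 kept its calls after FeSO4, between the DEX-treated groups and for the difference between the DEX responses under every alternative run, and its call after DEX under all but an LFC beyond 1. The limit of 1 was passed only narrowly after FeSO4 (LFC -1.0027) and for the difference (LFC -1.0017). In these 2 cases, other settings gave LFCs up to -0.98 and -0.88, and fits with a mouse left out up to -0.94 and -0.90. After FeSO4, the count of members called higher was 2, with 0 when libraries were scaled by size alone, 4 without a filter on low counts, 0 with an LFC beyond 1, and 1 to 4 with a mouse left out (4 without FeSO4/PBS mouse 1 or NaCl/PBS mouse 2, and 1 without NaCl/PBS mouse 3). After DEX, the count called higher was 1, with 2 in a fit of the compared livers alone and 0 with an LFC beyond 1, and the count called lower was 1, with 0 to 1 when a mouse was left out. Between the DEX-treated groups it was 2 higher, 3 in a fit of the compared livers alone (with Gpx4), and 1 with at least 10 counts in every library, where Alox12 was not tested. For the difference between the DEX responses it was 0 higher, with 1 under DESeq2 and 1 without a filter (Acsl3), and 0 to 1 when a mouse was left out. The cause was not tested, apart from the fewer genes of stricter settings. Scaling by library size alone moved the median LFC of all genes to -0.34 after FeSO4 and -0.18 after DEX, and the share of calls that were higher from 49.9% to 28.2%, from 47.6% to 25.8%, from 51.7% to 34.2% between the DEX-treated groups and from 48.3% to 63.7% for the difference. With an LFC beyond 1, 1730 genes were higher and 2040 lower after FeSO4 and 411 and 473 after DEX. DESeq2 called 747 genes lower for the difference, against 443, and without a filter the counts were 683 higher and 776 lower, against 414 and 443. When the longest transcript replaced the union of exons, Acsl4 and Lpcat3 swapped places in NaCl/PBS livers, and Vkorc1l1 and Acsl3 in NaCl/DEX and FeSO4/DEX livers.

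The replicate numbers were not used as pairs in the main fit. Deviations from the group means of same-numbered mice had correlations of -0.09 to 0.13 over 18 pairs. Those of mice with different numbers had -0.15 to 0.11 over 36 pairs. Between NaCl/DEX and NaCl/PBS, same-numbered mice had 0.13, 0.11 and 0.05, and the other pairs had -0.15 to 0.03. Whether the mice were paired was not tested beyond these values. With the replicate block, no call of a member changed, with 2 higher and 2 lower after FeSO4 and 1 higher and 1 lower after DEX, and 3613 genes were higher and 3655 lower after FeSO4. At this depth, Alox12 had at most 33 reads and Ptgs2 at most 8 in a liver.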

Other observations

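Genes whose log2 CPM followed each member most closely over the 12 livers were listed among 12751 genes, as a description without a test, since all points share the 4 treatments. For Gpx4 they were Rplp1, Rps2 and Naca, of which Rplp1 and Rps2 encode ribosomal proteins and Naca a ribosome-associated one, with Pearson's r of 0.97, 0.96 and 0.96. Their LFCs after FeSO4 were 0.49, 0.52 and 0.50, beside 0.46 for Gpx4. For Aifm2 they were Zfp292, Trir and Raph1, each with r of 0.98. Zfp292 had LFCs of -1.55 after FeSO4 and 0.74 after DEX.

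Acsl3 was followed by Zfp395, Gse1 and Hunk (r of 0.95, 0.94 and 0.94), whose LFCs after DEX lay between -1.87 and -1.28. Lpcat3 was followed by Zswim6, Chd2 and Rnf125 (each with r of 0.98), and Gch1 by Nqo1, Pmf1 and Gstm7 (r of 0.91, 0.90 and 0.90). The closest for Dhodh were Snx20, Gtf2h3 and Fpr2 (0.93, 0.92 and 0.885), for Vkorc1l1 Rpsa-ps10, Lamtor3 and Gpr107 (0.93, 0.93 and 0.92), for Acsl4 Ubxn2a, Tanc2 and Tlcd4 (0.93, 0.93 and 0.92), and for Alox12 Mark1, Frat1 and Cdt1 (0.95, 0.95 and 0.93). Rpsa-ps10 is a pseudogene whose reads may not be told from those of its parent gene.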
